A study of Mus musculus with 34 samples.

Results

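The genes described here encode the factors that start translation, measured by RNA sequencing in mouse T cells. Members were the protein-coding genes whose symbol begins with Eif, without the Y-linked Eif2s3y, at a mean level of at least 1 CPM (counts per 1000000 counts in the library) over all libraries. Of 54 such symbols 52 met the minimum, out of 48526 genes in the table, and all 52 were among the 18292 genes that passed the filter on low counts. Eif4ebp1 was the lowest member (mean 9.45 CPM), well above the minimum, and Eif4ebp3 (0.88 CPM) and Eif4e1b (0 CPM) lay outside it. The genes of the eIF4E-binding proteins and of the kinases that phosphorylate eIF2 carry Eif symbols and are included.

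The RNA came from T cells purified by negative selection from spleens of C57BL/6 mice aged 6 to 12 weeks. WT cells were sampled before stimulation (2 libraries) and after 24 h (day 1, 2 libraries) or 72 h (day 3, 2 libraries) with antibodies to CD3 and CD28 and recombinant IL-2. At both days there were also 2 libraries labelled CD28_KO and 3 each of Ars2_KO, DKI, CD28_AYAA and CD28_Y170F, stimulated in the same way. In all, 34 libraries made 13 groups. The labels of the unstimulated libraries carry the same treatment text as the rest, and these are taken as unstimulated from the design text. The labels do not say what DKI carries beyond placing it among the CD28 alleles, and no promoter or Cre line is named there for Ars2_KO. CD28 is the main costimulatory receptor of T cells, and its cytoplasmic tail is changed at a tyrosine-based site in CD28_Y170F and at a proline-rich one in CD28_AYAA. ARS2, encoded by Srrt, is a partner of the nuclear cap-binding complex.

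As background, initiation starts when eIF2 carrying GTP and the initiator tRNA joins the small ribosomal subunit with eIF1, eIF1A, eIF3 and eIF5. The mRNA cap is held by eIF4E, which forms eIF4F with the scaffold eIF4G and the helicase eIF4A, and the 4E-binding proteins block this when mTORC1 is inactive. The exchange factor eIF2B recharges eIF2 with GTP, and the eIF2 kinases stop that step under stress. Resting T cells translate little and are known to enlarge this machinery after activation.

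Depth, in units of 1000000 counts, ran from 8.3 to 47.8. The 6 DKI libraries and WT library 4 of each day held under 12 such units, and the others at least 15.7. Srrt was at 33.8, 64.8 and 33.5 CPM in Ars2_KO against 244 and 131 CPM in WT at day 1 (log2 -2.09, SE 0.23, adjusted p = 1.9e-05 in edgeR), and at 108, 146 and 105 against 245 and 145 CPM at day 3 (log2 -0.71, SE 0.23, adjusted p = 0.042 in edgeR). Cd28 was at 482 and 476 CPM in the libraries labelled CD28_KO at day 1 against 387 and 411 CPM in WT (log2 0.26, SE 0.18, adjusted p = 0.24 in edgeR), which goes against the label. At day 3 it was lower, at 212 and 214 against 474 and 587 CPM (log2 -1.32, SE 0.18, adjusted p = 1.6e-05 in edgeR). Cd28 also lay below both WT values at day 3 in DKI (270, 276 and 304 CPM) and CD28_AYAA (323, 318 and 283 CPM). The same held in Ars2_KO (274, 231 and 451 CPM), while CD28_Y170F was at 468, 594 and 574 CPM. The lower level at day 3 was thus not particular to the libraries labelled CD28_KO. Counts over the whole gene do not show which part of it was altered, and every direction given below for the libraries labelled CD28_KO rests on that label. All 12 T cell markers were above 0 in every group, with summed levels of 2650 to 4310 CPM. B cell markers summed to 790 to 870 CPM in unstimulated cells, 9.8 to 23.9 CPM in WT at day 1 and 81.3 to 115 CPM in the libraries labelled CD28_KO at day 1. Myeloid markers summed to 182 to 190 CPM in unstimulated cells and to at most 29.5 CPM in any other group. NK cell markers summed to 52.4 to 63.2 CPM and erythroid markers to 90.9 to 318 CPM in unstimulated cells. At day 3 Cd4 was at 102 and 133 CPM in WT and 40.7 and 47.4 CPM in the libraries labelled CD28_KO. It was at 65.3, 72.4 and 66.7 CPM in DKI and 95.1, 71.3 and 45.3 CPM in CD28_AYAA. In Ars2_KO it was at 101, 57.8 and 210 CPM and in CD28_Y170F at 99.5, 155 and 159 CPM. In bulk RNA, fewer cells of a type and less RNA per cell cannot be told apart.

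Stimulation for 24 h raised most initiation factor mRNAs in WT cells. At day 1, 37 of 52 members were higher than in unstimulated cells and 2 were lower, beside 51.3% of all genes called, 24.2% higher and 27.2% lower. A gene was called at an adjusted p under 0.05 (Benjamini-Hochberg over all genes tested) in edgeR's quasi-likelihood test, and changes are given as log2 fold changes with standard errors (SE). The median change was 0.56 over the members and -0.02 over all genes. Without WT library 1 of day 1 the number called was 25 in place of 39. From Xist and Y-linked genes the unstimulated libraries read as female and the stimulated WT libraries as male. With sex as a term in the fit 38 members were called at day 1. The part of the B cell, myeloid, NK cell and erythroid markers in the comparisons with unstimulated cells was not tested.

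**Figure D1:**
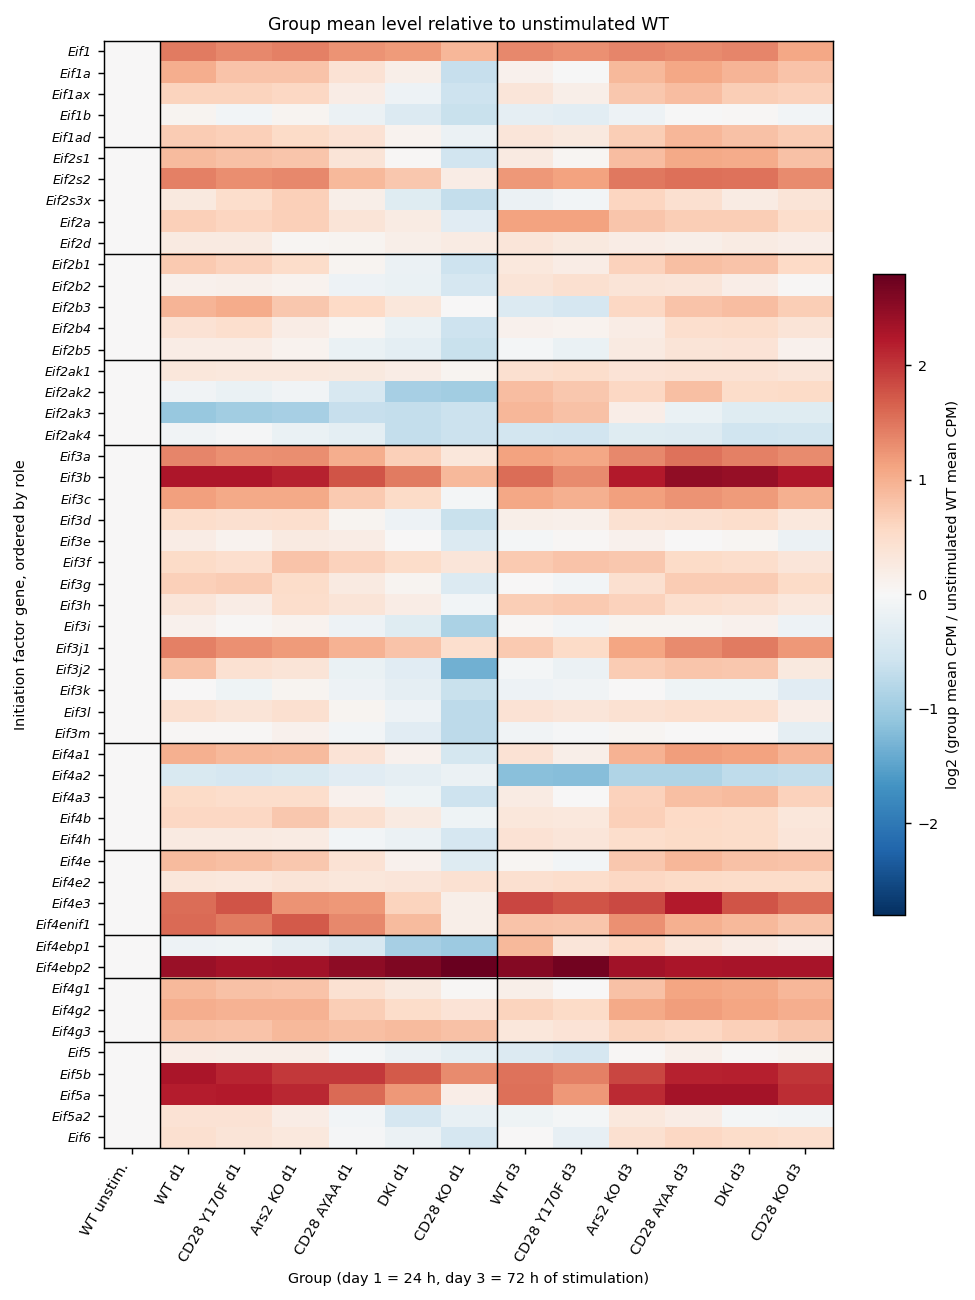
Colour gives the log2 ratio of each group's mean CPM to that of unstimulated WT, with the 52 genes in rows ordered by role and the 13 groups in columns. Most rows are red in WT, CD28 Y170F and Ars2 KO at day 1 and pale or blue in the libraries labelled CD28 KO at day 1. The latter hold the lowest group mean of 29 of the 52 genes, and genes outside the figure were not counted.

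The largest change was that of Eif4ebp2, whose product binds eIF4E and represses cap-dependent translation. It rose from 17.9 and 19.0 CPM to 98.8 and 96.9 CPM (log2 2.41, SE 0.10, adjusted p = 1.8e-15). Eif5a, whose product carries hypusine and acts in elongation and termination as well, rose from 169 and 180 to 888 and 715 CPM (log2 2.20, SE 0.36, adjusted p = 1.9e-05). Eif5b, the GTPase that joins the ribosomal subunits, rose from 38.0 and 42.2 to 210 and 182 CPM (log2 2.29, SE 0.19). In each of these genes the unstimulated and stimulated values lay well apart.

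All 3 genes of the eIF4E family among the members (Eif4e, Eif4e2 and Eif4e3), the eIF4E partner Eif4enif1 and all 3 scaffold genes were called higher at day 1. Eif4e, the cap-binding subunit, rose from 59.1 and 66.2 to 132 and 100 CPM (log2 0.89, SE 0.22). Eif4e3, a relative of it at lower level, rose from 12.3 and 14.6 to 42.9 and 36.3 CPM (log2 1.56, SE 0.19). Eif4enif1, which binds eIF4E and carries it into the nucleus, rose from 67.0 and 64.6 to 200 and 197 CPM (log2 1.60, SE 0.13). The main scaffold gene Eif4g1 rose from 340 and 348 to 712 and 572 CPM (log2 0.90, SE 0.22), and the changes of the 3 scaffold genes lay between 0.81 and 1.01. Eif4ebp1, the 4E-binding gene other than Eif4ebp2 among the members, stood at 8.63 and 9.67 CPM before and 11.4 and 5.16 CPM after (log2 -0.10, SE 0.46, adjusted p = 0.88).

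The genes of eIF3, the scaffold of the small subunit, ranged widely. Of 14, 11 were called higher, and Eif3i, Eif3k and Eif3m were not. Eif3b, a core subunit, rose from 65.7 and 69.0 to 366 and 281 CPM (log2 2.26, SE 0.29, adjusted p = 4.1e-07), with no overlap. Eif3j1 (log2 1.42), Eif3a (1.37) and Eif3c (1.14) followed. Eif3k stood at 119 and 121 CPM before and 122 and 117 CPM after (log2 0.00, SE 0.08). Eif3e, Eif3f and Eif3h, whose mRNAs are known for terminal oligopyrimidine tracts, rose by 0.20, 0.53 and 0.34. The median over the 14 eIF3 genes was 0.51.

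Among the genes that bring the initiator tRNA and select the start codon, 4 of 5 and 4 of 5 were called higher. Eif2s1, the eIF2 subunit that the kinases phosphorylate, rose from 89.7 and 96.3 to 200 and 146 CPM (log2 0.90, SE 0.24). Eif1, which guards start codon choice, rose from 146 and 129 to 373 and 373 CPM (log2 1.44, SE 0.11). Eif1a rose from 48.4 and 53.9 to 114 and 91.4 CPM (log2 1.01, SE 0.23). Eif1a and Eif1ax, like Eif3j1 and Eif3j2, are near-identical copies, so the split of reads between them is uncertain. Of the 5 eIF2B subunit genes, Eif2b1, Eif2b3 and Eif2b4 were called higher, by 0.75, 0.96 and 0.41.

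Only 2 members were called lower at day 1 in WT. Eif2ak3 encodes PERK, the eIF2 kinase of the endoplasmic reticulum, and fell from 49.2 and 53.1 to 24.4 and 25.0 CPM (log2 -1.05, SE 0.14, adjusted p = 7.8e-07). Eif4a2, one of a pair of eIF4A helicase genes, fell from 644 and 635 to 456 and 499 CPM (log2 -0.42, SE 0.11). Its paralogue Eif4a1 moved the other way, from 452 and 463 to 1010 and 808 CPM (log2 0.99, SE 0.23). Per kilobase of exon, the ratio of Eif4a1 to Eif4a2 within a library went from 0.881 ± 0.0233 to 2.36 ± 0.509 (SD, n = 2 each). Small nucleolar RNA genes lie within both on the same strand, and their reads could enter these counts.

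**Figure D2:**
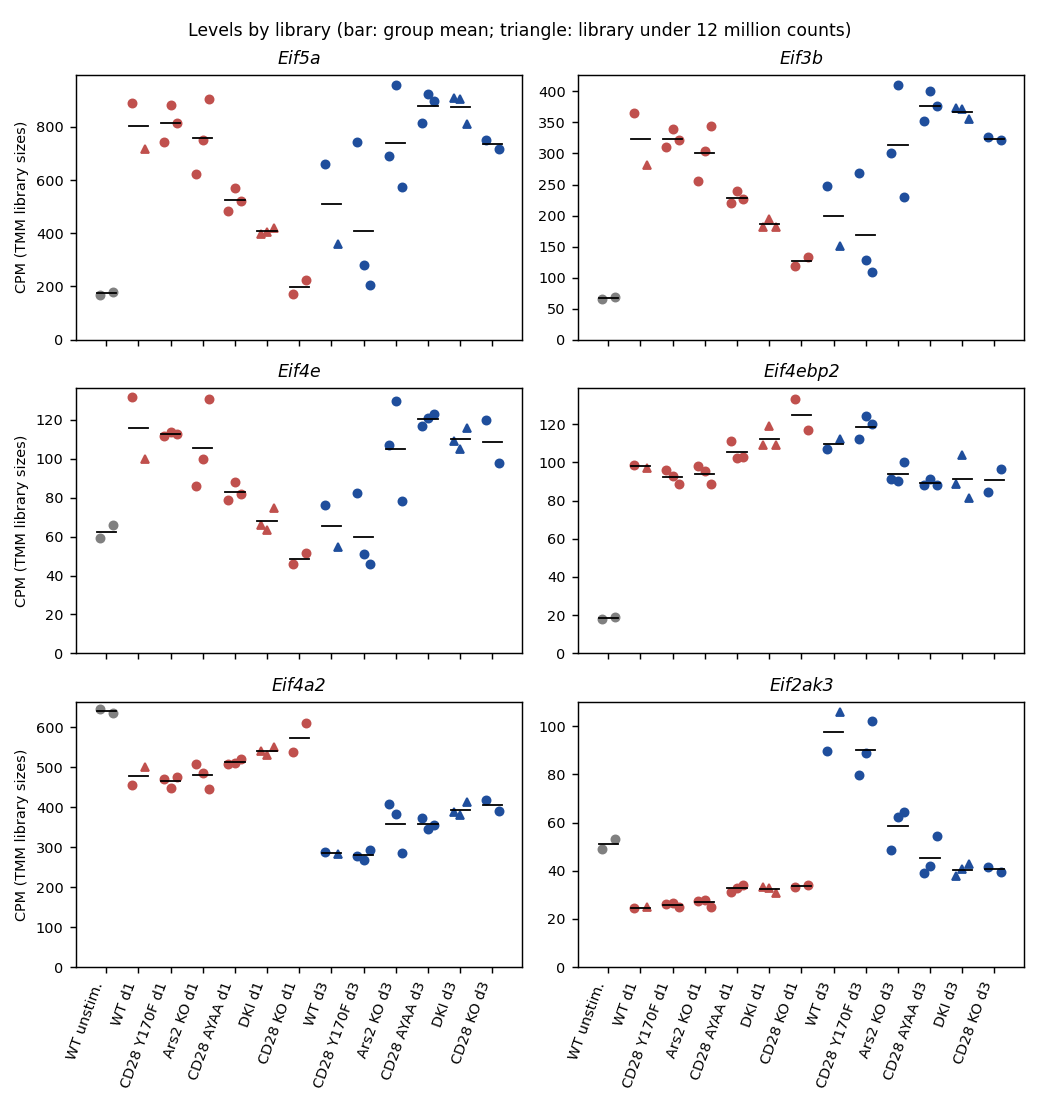
Points give the CPM of single libraries for 6 genes in the 13 groups, grey for unstimulated, red for day 1 and blue for day 3, with bars at group means and triangles for the libraries of lowest depth. Among the day 1 groups Eif5a, Eif3b and Eif4e are lowest in the libraries labelled CD28 KO, Eif4ebp2 stays high in every stimulated group, and Eif2ak3 peaks in WT and CD28 Y170F at day 3.

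Promoter sequence was available in the RefSeq table (GRCm38.p6) for 42 of the 52 members, as 300 bases from 250 before to 50 after each start. The E-box letters CACGTG, which read the same on both strands and are known as a site of MYC and related factors, occurred in 10 of the 42 genes (23.8%), against 11.3% of the tested protein-coding genes with an entry. By promoter the shares were 21.8% of 55 for the members, 9.55% of 13304 for the tested protein-coding genes and 7.15% of all 32851. Windows of 60 bases are shown for 3 of the genes above that rose, with the E-box in capitals. They lie at chr11:69921428-69921487 (minus strand, Eif5a), chr11:69672580-69672639 (minus strand, Eif4a1) and chr16:20672646-20672705 (plus strand, Eif4g1), outside annotated exons.
Eif5a: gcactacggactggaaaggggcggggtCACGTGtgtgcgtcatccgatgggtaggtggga
Eif4a1: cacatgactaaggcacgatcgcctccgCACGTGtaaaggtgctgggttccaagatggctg
Eif4g1: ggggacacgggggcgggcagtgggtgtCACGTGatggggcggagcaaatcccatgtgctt
The E-box begins 74 bases before the nearer of 2 starts of Eif5a, 189 before that of Eif4a1 and 54 before that of Eif4g1. For the 10 genes with the letters and the 32 without, the median changes were 0.71 and 0.56 in WT at day 1 against unstimulated cells and 0.28 and 0.35 at day 3. They were -0.80 and -0.91 in the libraries labelled CD28_KO against WT at day 1. In DKI against WT at day 3 they were 0.28 and 0.33. They were -0.44 and -0.28 in WT at day 3 against day 1, and -0.41 and -0.30 in CD28_AYAA against WT at day 1. In size, the median change of the genes with the letters was the larger in most comparisons, but not in all. These comparisons share libraries, and the difference between the sets was not tested. A match describes these letters and shows no bound factor. The letters TGATGNAAN, searched on both strands, occurred in 1 member, Eif2s3x (2.38% of genes against 2.86% of those tested).

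At 72 h fewer members were called higher than at 24 h. Against unstimulated WT cells 25 members were higher and 2 lower at day 3 (50.5% of all genes called, 23.5% higher and 27% lower). Against day 1, 5 were higher and 16 lower (29.5% of all genes called, 15.5% higher and 14% lower), with a median of -0.30. The latter count of 21 was 9 without WT library 4 of day 3 and 12 without WT library 1 of day 1, and 6 in a fit to only these groups. WT library 1 was the higher of the pair for 46 members at day 1 and for 43 at day 3, which was not counted over all genes.

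Among those lower at day 3 than at day 1, Eif4e was at 76.3 and 54.7 CPM (log2 -0.82, SE 0.23) and Eif1a at 68.6 and 43.2 CPM (log2 -0.87, SE 0.23), both near their unstimulated levels. Eif2b3, a subunit of the exchange factor, fell from 33.3 and 28.3 to 13.5 and 11 CPM (log2 -1.32, SE 0.26). Eif4a2 fell further, to 287 and 282 CPM (log2 -0.75, SE 0.11). Eif4ebp2 was at 107 and 112 CPM.

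Of the 4 eIF2 kinase genes 2 were higher at day 3 than at day 1 and 0 lower. Eif2ak3 turned from 24.4 and 25.0 to 89.6 and 106 CPM (log2 1.99, SE 0.14, adjusted p = 4.8e-10), above its unstimulated level. Eif2ak2, the kinase PKR that senses double-stranded RNA, rose from 46.3 and 40.9 to 80.3 and 88.6 CPM (log2 0.95, SE 0.16). Eif2ak1, the heme-regulated kinase, was at 49.0 and 53.5 CPM unstimulated, 63.7 and 64.1 CPM at day 1 and 75.3 and 65.4 CPM at day 3. Eif2ak4, the amino acid sensor GCN2, was the one kinase gene lower at day 3 than in unstimulated cells, at 25.5 and 17.2 against 30.0 and 30.9 CPM (log2 -0.50, SE 0.18).

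In the libraries labelled CD28_KO nearly all members were lower than in WT at day 1. The count was 45 lower and 3 higher of 52, beside 43.3% of all genes called, 18.6% higher and 24.7% lower, with a median of -0.91 over the members and 0.02 over all genes. Leaving out any 1 library gave 37 to 46 called in place of 48. All 14 eIF3 genes, all 5 eIF2B genes, all 5 start codon genes and all 5 joining and late factor genes were lower. The B cell marker sums given above were also higher in these libraries than in WT, and their part was not tested.

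Eif5a was at 172 and 223 CPM in these libraries against 888 and 715 CPM in WT (log2 -2.02, SE 0.36, adjusted p = 7.4e-05), close to the 169 and 180 CPM of unstimulated cells. Eif4a1 was at 295 and 353 against 1010 and 808 CPM (log2 -1.48, SE 0.23, adjusted p = 1.5e-05), and Eif2s1 at 58.6 and 69.0 against 200 and 146 CPM (log2 -1.44, SE 0.25). Both lay below their unstimulated values without being called lower than them (adjusted p = 0.07 and 0.062 in edgeR). Eif4e was at 46.0 and 51.4 against 132 and 100 CPM (log2 -1.25, SE 0.23, adjusted p = 8.3e-05), and Eif4e3 at 15.9 and 14.1 against 42.9 and 36.3 CPM (log2 -1.41, SE 0.19). Eif3j2 had the largest difference, at 2.82 and 4.85 against 19.1 and 15.5 CPM (log2 -2.17, SE 0.33, adjusted p = 1.3e-05). Eif3b, at 118 and 134 CPM (log2 -1.36, SE 0.28), and Eif1a, at 30.8 and 35.1 CPM (log2 -1.64, SE 0.23), were also clear of WT, and so was Eif6, which keeps the large subunit free, at 40.1 and 40.2 against 82.2 and 67.6 CPM (log2 -0.90, SE 0.24).

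The 3 genes called higher were Eif2ak3, Eif4ebp2 and Eif4a2. Eif2ak3 was at 33.4 and 34.0 against 24.4 and 25.0 CPM (log2 0.45, SE 0.14) and Eif4a2 at 537 and 610 against 456 and 499 CPM (log2 0.27, SE 0.11). Eif4ebp2 was at 133 and 117 against 98.8 and 96.9 CPM (log2 0.35, SE 0.10), and it was called higher there than in unstimulated cells, which Eif4e was not. Per kilobase, the ratio of Eif4ebp2 to Eif4e was 0.306 ± 0.0113 in unstimulated cells, 0.889 ± 0.156 in WT at day 1 and 2.68 ± 0.453 in the libraries labelled CD28_KO (SD, n = 2 each). Eif2ak2 went with the majority, at 21.5 and 26.0 against 46.3 and 40.9 CPM (log2 -0.88, SE 0.16). The 4 genes not called were Eif2d (log2 -0.02), Eif4e2 (0.10), Eif4g3 (0.01) and Eif4ebp1 (-0.92, SE 0.49).

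**Figure D3:**
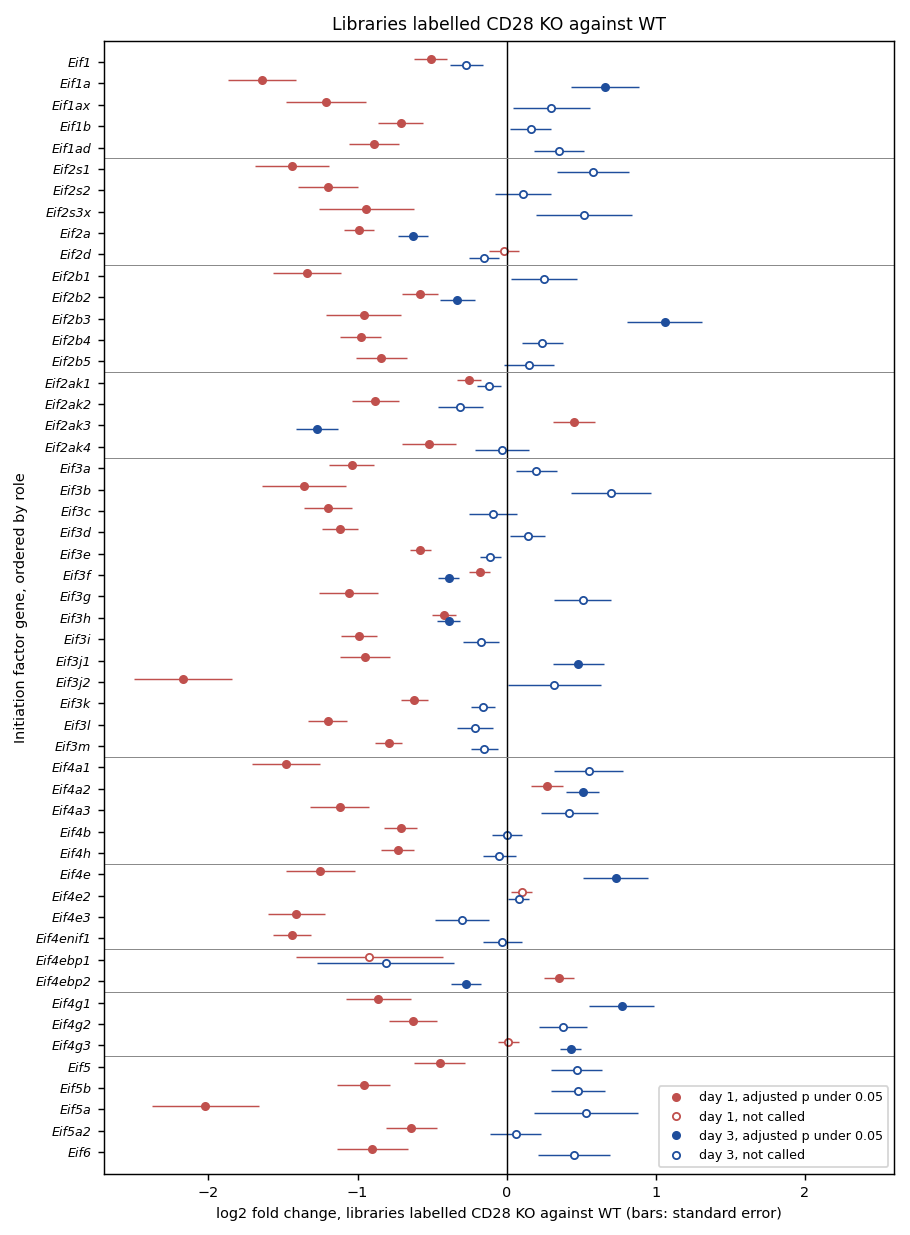
The x axis gives the log2 fold change against WT of each gene in the libraries labelled CD28 KO, red for day 1 and blue for day 3, with bars for SE and filled points for an adjusted p under 0.05. At day 1 the points lie left of 0 for nearly all genes (45 called lower), and at day 3 they lie on both sides (7 higher, 6 lower).

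Set against unstimulated cells, the libraries labelled CD28_KO had 8 members higher and 19 lower at day 1 (52.2% of all genes called, 21.1% higher and 31.1% lower). Eif4ebp2 (log2 2.76, SE 0.10), Eif5b (1.33), Eif1 (0.93) and Eif3b (0.90) were the largest of the rises, and Eif3j2 (-1.34), Eif2ak2 (-0.97) and Eif3i (-0.88) of the falls. The same comparison gave 19 higher and 9 lower in DKI (49.1% of all genes called, 21.7% higher and 27.5% lower), 22 and 3 in CD28_AYAA (50% of all genes called, 23.8% higher and 26.2% lower), 33 and 2 in Ars2_KO (53.6% of all genes called, 25.7% higher and 28% lower) and 36 and 2 in CD28_Y170F (54.7% of all genes called, 25.8% higher and 28.9% lower). These comparisons share the unstimulated libraries. At day 3 against unstimulated cells the members higher and lower were 34 and 5 in the libraries labelled CD28_KO (52.1% of all genes called, 24.1% higher and 28% lower), 39 and 3 in DKI (58.1% of all genes called, 26.3% higher and 31.8% lower), and 39 and 1 in CD28_AYAA (60.2% of all genes called, 27.8% higher and 32.3% lower). They were 36 and 1 in Ars2_KO (56.8% of all genes called, 27.3% higher and 29.6% lower) and 25 and 3 in CD28_Y170F (53.8% of all genes called, 25.3% higher and 28.5% lower).

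In DKI at day 1, 39 members were lower than in WT and 1, Eif2ak3, was higher (26% of all genes called, 10.3% higher and 15.8% lower), with a median of -0.59. Eif5a was at 396, 405 and 420 CPM (log2 -0.98, SE 0.31), Eif4e at 66.0, 63.4 and 74.5 CPM (log2 -0.77, SE 0.20) and Eif3b at 182, 194 and 181 CPM (log2 -0.80, SE 0.25). For these 3 genes every DKI value lay below both WT values and above both values of the libraries labelled CD28_KO. The difference between DKI and the latter was not called for Eif4e and Eif3b (adjusted p = 0.15 and 0.17 in edgeR). The count depended on WT library 1. Without it, which leaves only WT library 4 of similar depth, fewer members were called, and the share of all genes called fell as well. The median change over the members was then -0.45. Against the libraries labelled CD28_KO, 14 members were higher in DKI and 0 lower (9.06% of all genes called, 6.3% higher and 2.76% lower), led by Eif5a (log2 1.04, SE 0.33) and Eif3j2 (log2 1.03, SE 0.32), and without library 1 of those labelled CD28_KO this count was 1.

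In CD28_AYAA at day 1, 2 members were called lower than in WT and 0 higher, 3.85% of the members against 3.61% of all genes called, 1.61% higher and 2% lower. They were Eif3d, an eIF3 subunit that can itself bind a cap, at 123, 142 and 130 against 188 and 164 CPM (log2 -0.42, SE 0.11), and Eif3j2, at 9.06, 8.32 and 8.47 against 19.1 and 15.5 CPM (log2 -1.01, SE 0.28). At an unadjusted p under 0.05 there were 27 lower and 1 higher, and DESeq2 called 14. These counts are for the members alone and cannot be set against a share of all genes. Leaving out any 1 of the CD28_AYAA libraries or WT library 1 left 0 called, and leaving out WT library 4 gave 9. Eif5a was at 484, 569 and 521 CPM (log2 -0.61, SE 0.31) and Eif4e at 78.6, 88.3 and 81.9 CPM (log2 -0.49, SE 0.2). Neither was called against WT (adjusted p = 0.24 and 0.15 in edgeR).

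No member was called in CD28_Y170F against WT at day 1 by edgeR (0.0547% of all genes called, 0.0164% higher and 0.0383% lower), with 0 at an unadjusted p under 0.05 and 0 by DESeq2 or limma-voom. Its Eif5a values were 743, 883 and 816 CPM and its Eif4e values 112, 114 and 113 CPM, within the WT range for both genes. In Ars2_KO at day 1 edgeR called 0 members (0.399% of all genes called, 0.23% higher and 0.169% lower), with 2 higher at an unadjusted p under 0.05 and 1 each by DESeq2 and limma-voom, and 1 without its library 3. Eif5a there was at 621, 750 and 904 CPM and Eif4e at 86.2, 99.9 and 131 CPM. A missing call does not show that these groups were alike.

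Compared directly at day 1, CD28_AYAA had 5 members lower than CD28_Y170F and 0 higher (4.35% of all genes called, 2.17% higher and 2.18% lower). They were Eif4e3 (log2 -0.54, SE 0.15), Eif5a2 (-0.47), Eif2b4 (-0.41), Eif3d (-0.38) and Eif4h (-0.33). Eif4e3 was at 30.1, 31.0 and 32.2 CPM against 45.3, 47.0 and 43.2 CPM, with no overlap. Leaving out any 1 of the 6 libraries left 0 called, while DESeq2 called 11, edgeR with no filter on low counts 12 and a fit to only these groups 32.

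At day 3 members moved in both directions against WT, and the number called depended on the WT libraries used. With both WT libraries, 19 members were higher and 5 lower in CD28_AYAA (21.7% of all genes called, 10.4% higher and 11.3% lower), 18 and 5 in DKI (23.4% of all genes called, 10.3% higher and 13.1% lower), 7 and 6 in the libraries labelled CD28_KO (20% of all genes called, 8.57% higher and 11.5% lower) and 8 and 2 in Ars2_KO (12.9% of all genes called, 6.6% higher and 6.27% lower). These comparisons share the WT libraries and depended on WT library 4. Without it fewer members were called in each of these genotypes. The share of all genes called fell as well in CD28_AYAA, Ars2_KO and the libraries labelled CD28_KO. Against WT library 1 alone the median change over the members was 0.21 in CD28_AYAA, 0.01 in the libraries labelled CD28_KO and 0.13 in Ars2_KO. That fit leaves 1 WT library at day 3 and cannot show whether the excess of higher members holds. Against WT library 4 alone, which has the depth of DKI, the median change over the members in DKI was 0.4. A fit to only the groups compared called 7 in the libraries labelled CD28_KO and 0 in Ars2_KO. Without Ars2_KO libraries 1, 2 and 3 in turn the Ars2_KO count was 6, 4 and 25, and without the first library labelled CD28_KO that count was 7.

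Eif2b3 had the largest rise in all 4 genotypes, by 1.16 in CD28_AYAA, 1.23 in DKI, 1.06 in the libraries labelled CD28_KO and 0.94 in Ars2_KO. Eif4e was at 117, 121 and 123 CPM in CD28_AYAA (log2 0.87, SE 0.21), 109, 105 and 116 CPM in DKI (log2 0.74, SE 0.21) and 120 and 97.8 CPM in the libraries labelled CD28_KO (log2 0.73, SE 0.22), all above the 76.3 and 54.7 CPM of WT. In Ars2_KO it was at 107, 130 and 78.3 CPM (log2 0.68, SE 0.21). The scaffold Eif4g1 was higher in the same genotypes, by 0.94, 0.89, 0.77 and 0.66. Eif5a was at 814, 925 and 898 CPM in CD28_AYAA and 661 and 358 CPM in WT, where the spread of the WT pair was wide and the difference was not called (log2 0.79, SE 0.32, adjusted p = 0.087).

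Eif2ak3 went the other way. It was at 39.1, 41.9 and 54.4 CPM in CD28_AYAA (log2 -1.11, SE 0.12, adjusted p = 1.9e-06), 37.8, 40.8 and 42.6 CPM in DKI (log2 -1.28, SE 0.12), 41.7 and 39.5 CPM in the libraries labelled CD28_KO (log2 -1.27, SE 0.14) and 48.5, 62.4 and 64.4 CPM in Ars2_KO (log2 -0.74, SE 0.12). All of these lay below the 89.6 and 106 CPM of WT. Eif2a, which can deliver the initiator tRNA in place of eIF2, was lower in the same 4 genotypes, with log2 changes of -0.44, -0.43, -0.63 and -0.35. Within eIF3, Eif3f (-0.19) and Eif3h (-0.21) were lower in CD28_AYAA while Eif3b (0.92), Eif3j2 (0.83), Eif3g (0.69), Eif3j1 (0.59) and Eif3a (0.40) were higher. Eif4ebp2 was lower there (log2 -0.30), at 88.2, 91.5 and 88.1 against 107 and 112 CPM.

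**Figure D4:**
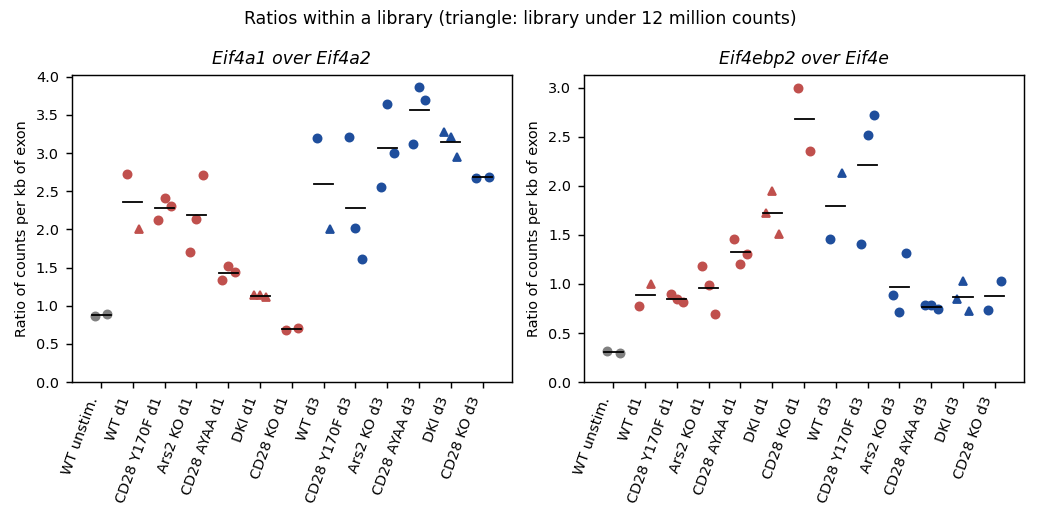
Ratios within each library of counts per kilobase of exon, Eif4a1 over Eif4a2 and Eif4ebp2 over Eif4e, for the 13 groups with bars at group means. In the libraries labelled CD28 KO the first ratio is lowest at day 1 (mean 0.695) and the second highest (mean 2.68), and at day 3 they stand at 2.69 and 0.882.

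CD28_Y170F had no called member against WT at day 3 by edgeR (0.0273% of all genes called, 0.0109% higher and 0.0164% lower), with 0 at an unadjusted p under 0.05 and 0 by DESeq2 or limma-voom, but 6 were called without its library 1. Its libraries were far apart, with Eif5a at 742, 279 and 204 CPM. Against CD28_Y170F, CD28_AYAA had 29 members higher and 5 lower at day 3 (36.8% of all genes called, 17.6% higher and 19.2% lower), and leaving out any 1 library gave 26 to 40 called. Eif2b3 (log2 1.28, SE 0.20, adjusted p = 3.1e-05) and Eif3b (log2 1.16, SE 0.23, adjusted p = 0.00025) led the rises. Eif4e was at 117, 121 and 123 CPM against 82.6, 51.3 and 45.8 CPM, with no overlap (log2 1.01, SE 0.18). The 5 lower members were Eif2ak3 (-1.0), Eif2a (-0.45), Eif4ebp2 (-0.41), Eif3f (-0.26) and Eif3h (-0.26). DKI and the libraries labelled CD28_KO differed in 0 members at day 3 by edgeR (0.454% of all genes called, 0.219% higher and 0.235% lower), with 8 higher in DKI at an unadjusted p under 0.05, 2 called by DESeq2 and 0 by limma-voom.

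The change from day 1 to day 3 was tested against that of WT as an interaction. In the libraries labelled CD28_KO it differed for 41 members, 39 upward and 2 downward (35.3% of all genes called, 20.5% higher and 14.7% lower), with a median of 1.00, and leaving out any 1 library gave 37 to 42. Eif5a there went from 172 and 223 CPM to 751 and 717 CPM, whereas WT went from 888 and 715 to 661 and 358 CPM (difference of changes 2.55, SE 0.50). Eif2ak3 went from 33.4 and 34.0 to 41.7 and 39.5 CPM there and from 24.4 and 25.0 to 89.6 and 106 CPM in WT (difference -1.72, SE 0.20). DKI had 36 upward and 2 downward (32.5% of all genes called, 17.7% higher and 14.7% lower) and CD28_AYAA 30 and 3 (24.4% of all genes called, 12.3% higher and 12.1% lower). Without WT library 1 of day 1 these counts were 25 in DKI and 16 in CD28_AYAA, and without WT library 4 of day 3 there were 15 in CD28_AYAA. Ars2_KO had 2 (3.68% of all genes called, 1.91% higher and 1.77% lower), Eif2b3 and Eif2ak3, and leaving out 1 library gave 0 to 14, with the 14 without its library 3 of day 3, 9 without library 3 of day 1, 4 without WT library 1 of day 3 and 0 without WT library 4. Each of the other 6 left 1 called. CD28_Y170F had 0 in edgeR (0% of all genes called, 0% higher and 0% lower), with 1 at an unadjusted p under 0.05 and 0 by DESeq2 or limma-voom.

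Eif2s3x, the X-linked gene of the third eIF2 subunit, differed by sex. Within groups it was 0.63 higher (log2, SE 0.07, adjusted p = 5.5e-06) in libraries read as female, and was the 1 member of 52 called in that test (0.164% of all genes). In CD28_AYAA at day 3 the libraries were at 295, 327 and 509 CPM, and the last of these is female. The female libraries lay above the male ones in all 8 groups that hold both. With sex as a term its change from unstimulated to day 1 in WT was 0.92 (SE 0.17, adjusted p = 0.00013), against 0.28 (SE 0.32, adjusted p = 0.48) without, and in the libraries labelled CD28_KO at day 1 its difference from WT was -1.28 (SE 0.16, adjusted p = 1.4e-06) against -0.94 (SE 0.32, adjusted p = 0.02). Eif1ax, also X-linked, had female and male values mixed.

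**Figure D5:**
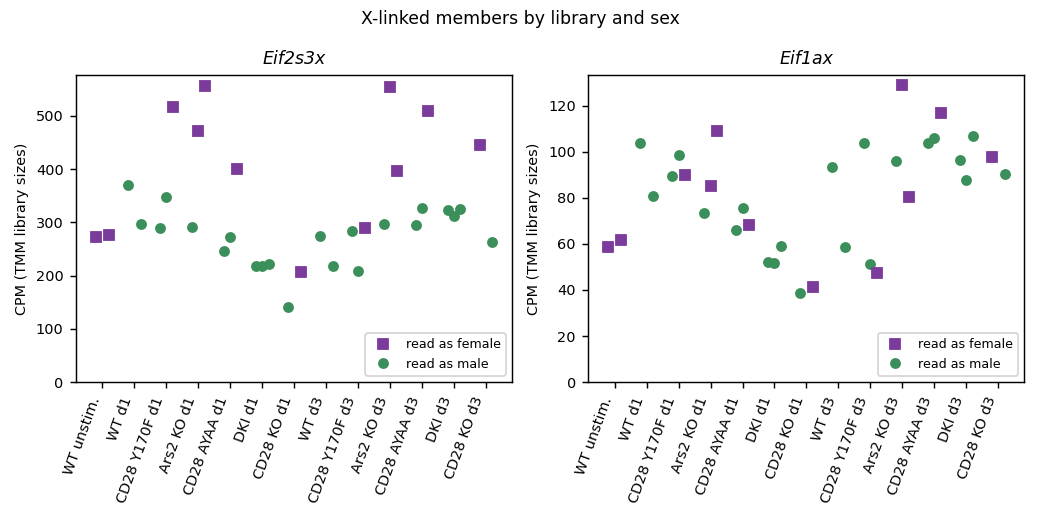
CPM of Eif2s3x and Eif1ax by library in the 13 groups, with purple squares for libraries read as female and green circles for male. For Eif2s3x the squares lie above the circles of the same group in all 8 groups with both, with a fitted difference of 0.63 on the log2 scale, and for Eif1ax they mix.

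Of 46 other translation genes listed, 45 were tested. At day 1 in WT 22 were higher and 7 lower (64.4% called against 51.3% of all genes). Pabpc1, the poly(A)-binding protein that links both ends of an mRNA, rose from 236 and 284 to 1920 and 1810 CPM (log2 2.84, SE 0.10). Larp1, which represses mRNAs with terminal oligopyrimidine tracts, rose by 2.18, and Ppp1r15a, a phosphatase subunit that undoes eIF2 phosphorylation, had a change of -1.83. In the libraries labelled CD28_KO at day 1, 7 were higher and 23 lower than in WT (66.7% against 43.3%), with Pabpc1 at 905 and 1020 CPM (log2 -0.95, SE 0.10). At day 3 Eef2, the translocation factor of elongation, was at 2360 and 2440 CPM there against 3680 and 3980 CPM in WT (log2 -0.68, SE 0.08). Trib3, a target of the ATF4 pathway downstream of the eIF2 kinases, was at 9.84 and 10.8 against 38.7 and 23.9 CPM (log2 -1.61, SE 0.32).

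Across the 13 groups the ratio of the highest to the lowest group mean had a median of 2.31 over the members and ran from 1.26 to 6.78. It was widest in Eif4ebp2 (6.78), Eif3b (5.59), Eif5a (5.03), Eif5b (4.89) and Eif4e3 (4.67). The lowest group mean lay in the libraries labelled CD28_KO at day 1 for 29 members and in unstimulated WT for 17. The highest lay in CD28_AYAA at day 3 for 18. These counts were made for the members alone, and all genes were not counted in this way. Compared per kilobase of exon, Eif4a2 (120 CPM per kb) and Eif4a1 (106) were the highest members in unstimulated WT, and Eif5a (337) and Eif4a1 (209) in WT at day 1. Eif4ebp2, despite its rise, went from 3.18 to 16.9 CPM per kb and stayed among the lower members.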

How the data were processed

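Expected counts per gene, as RSEM estimates them, were deposited by the authors in 1 table of 34 libraries, and were rounded here to whole numbers. Per the labels' protocols, total RNA was depleted of ribosomal RNA and made into libraries with a dUTP kit. The submitters' processing notes name bcl2fastq 2.20, FastQC, STAR, RSEM, limma, mm10 and GRCm38. The strand setting and annotation of the counting are not given in the sources used here, so reads of overlapping genes may be shared.

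Of 48526 genes, 99.2% matched GENCODE M21 by identifier. edgeR 4.0.16 in R 4.3.3 fitted 1 mean per group to all 34 libraries, with TMM scaling (factors 0.83 to 1.11), its default filter on low counts, and a common biological coefficient of variation of 0.16. SE is the log2 fold change over the square root of F. CPM use TMM library sizes, and marker sums and the Cd4 and Cd8a levels use total counts. The scripts were tested on simulated data. Counts at an unadjusted p, by DESeq2 and by limma-voom are given for the members alone, with no share of all genes beside them. Alternatives were RLE size factors, no filter, protein-coding genes alone, a replicate block, sex as a term, limma-voom (limma 3.58.1), DESeq2 1.42.0, a fit to only the groups compared, only the WT library of like depth, and each library left out.

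Members and gene lists were chosen with earlier results of these data known. Named were 19 listed members and up to 4 members per direction and comparison with the largest change among those called with groups that did not overlap, and other members by role. Of the other translation genes, up to 5 per comparison were named, by smallest adjusted p. Same-numbered CD28_AYAA and CD28_Y170F libraries deviated together at day 1 (correlations 0.25, 0.29 and 0.34), as did those of Ars2_KO across days (0.21, 0.21 and 0.11). The libraries labelled CD28_KO at day 3 carry different numbers in columns and titles and were matched only to their group. The design text calls the replicates biological.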

Additional observations from a re-analysis of the deposited data

Results flagged for a closer look

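In 4 genotypes the change from day 1 to day 3 differed from that of WT by the interaction test. In the libraries labelled CD28_KO this held for 41 members (35.3% of all genes called). Eif5a was at a difference of changes of 2.55 there and Eif2ak3 at -1.72 on the log2 scale. In DKI it held for 38 (32.5% of all genes called), with Eif3j2 at 1.95 and Eif2ak3 at -1.67. In CD28_AYAA it held for 33 (24.4% of all genes called), with Eif3j2 at 1.84 and Eif2ak3 at -1.52. In Ars2_KO it held for 2 of 52, Eif2b3 at 1.14 and Eif2ak3 at -0.87. That is near the share of all genes called there (3.68%). All 4 share the WT libraries. No group has 4 or more libraries, so none was tested for a single library far from the rest.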

How the results depend on the processing

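Of the 184 values of named genes, 141 of 1596 alternative values lost their call and 0 changed direction, and 200 of 1071 did so when 1 library was left out, again with 0 changes of direction. Among the alternatives, calls were lost most often with only the WT library of like depth. The fit to only the groups compared came next, with 36 of 184 lost, while RLE size factors and DESeq2 lost 1 each. Numbers of members called moved by over 1.5 times as follows, and the cause was not tested. With a fit to only the groups compared they were 6 for WT day 3 against day 1, 5 for CD28_AYAA at day 1, 0 for Ars2_KO at day 3, 7 for the libraries labelled CD28_KO at day 3, 32 and 21 for CD28_AYAA against CD28_Y170F at days 1 and 3, 32 and 8 for DKI against the libraries labelled CD28_KO at days 1 and 3, and 0 for the Ars2_KO interaction. With only the WT library of like depth they were 5 for DKI and 8 for CD28_AYAA at day 1, 2 for Ars2_KO, 6 for the libraries labelled CD28_KO and 4 for CD28_AYAA at day 3, and 0 and 20 for the Ars2_KO and CD28_AYAA interactions. With DESeq2 they were 1 for Ars2_KO and 14 for CD28_AYAA at day 1, 11 for CD28_AYAA against CD28_Y170F at day 1, 2 for DKI against the libraries labelled CD28_KO at day 3 and 5 for the Ars2_KO interaction, and limma-voom gave 1 for Ars2_KO at day 1 and 1 for its interaction. With no filter on low counts they were 14 and 12 for CD28_AYAA at day 1 against WT and CD28_Y170F, and 6 for the Ars2_KO interaction. CD28_AYAA at day 1 also gave 6 with protein-coding genes alone and 4 with sex as a term.

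With the replicate block they were 17 for CD28_AYAA at day 1 and, at day 3, 5 for Ars2_KO, 8 for the libraries labelled CD28_KO, 9 for DKI and 6 for CD28_AYAA. The block moved no other count by over 1.5 times. Same-numbered CD28_AYAA and CD28_Y170F libraries of day 3 had correlations of 0.01, 0.05 and 0.15 and are not taken as paired.

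Leaving out 1 library gave 25 to 40 for WT day 1 against unstimulated cells, 9 to 25 for WT day 3 against day 1, 0 to 1 for Ars2_KO, 5 to 39 for DKI and 0 to 9 for CD28_AYAA at day 1. At day 3 it gave 2 to 25 for Ars2_KO, 6 to 17 for the libraries labelled CD28_KO, 5 to 25 for DKI, 4 to 28 for CD28_AYAA and 0 to 6 for CD28_Y170F. It gave 0 to 0 for CD28_AYAA against CD28_Y170F and 1 to 13 for DKI against the libraries labelled CD28_KO at day 1, and 0 to 14, 25 to 39 and 15 to 35 for the interactions of Ars2_KO, DKI and CD28_AYAA. With 2 WT libraries per day, of unequal depth, depth and replicate cannot be told apart in WT.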
